A study of Mus musculus with 2 samples.

Results

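The disease-associated microglia genes are 10 of the 24130 genes of the deposited matrices, namely Apoe, Trem2, Tyrobp, Cst7, Lpl, Axl, Itgax, Clec7a, Spp1 and Csf1. They were chosen by name, and all 10 had unique molecular identifiers (UMIs, 1 per captured mRNA molecule) in microglia of both libraries. The study prepared hippocampal cells of male C57BL/6 mice with papain and sequenced 2 10x single-cell libraries, 1 per group. For the EMF_AuNPs library, gold nanoparticles (AuNPs) were injected into the hippocampus, and the mice then spent 3 weeks between Helmholtz coils that produce an electromagnetic field (EMF). For the control library, mice received saline, and the protocol does not settle whether they too were placed between the coils. Both groups are labelled 6 months of age, although the titles call the brain aged, and the number of mice per library is not given in the sources used here.

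Microglia are the resident macrophages of the brain. Trem2 is a surface receptor for lipids and lipoproteins, and Tyrobp is the adaptor through which it signals. In mouse models of neurodegeneration, demyelination and injury, microglia can move from a homeostatic state to a disease-associated state. In that state they carry less mRNA of homeostatic genes such as P2ry12, Tmem119 and Cx3cr1. They carry more Apoe and Tyrobp in an early step, and Cst7, Lpl, Axl, Itgax, Clec7a, Spp1 and Csf1 in a later step that depends on Trem2.

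The EMF_AuNPs library held 7003 barcodes with a median of 2310 UMIs, and the control library held 21583 barcodes with a median of 1904 UMIs. A barcode was gated as microglia when it carried at least 3 of 8 microglial markers (P2ry12, Tmem119, Siglech, P2ry13, Gpr34, Fcrls, Olfml3, Cx3cr1) and at least 2 more of them than of any other class. This gave 740 EMF_AuNPs and 3115 control microglia, with medians of 1957 and 1579 UMIs. The 8 markers summed to 11125 CPM (UMIs scaled to a class total of 1000000) in EMF_AuNPs microglia and 12485 CPM in control microglia, and none of them was at 0 in either library. The 8 border macrophage markers summed to 160 CPM in EMF_AuNPs microglia and 140 CPM in control microglia. The 8 oligodendrocyte markers summed to 1040 CPM in EMF_AuNPs microglia and 509 CPM in control microglia, and the 8 astrocyte markers to 2133 CPM in EMF_AuNPs and 2934 CPM in control microglia. Haemoglobin made up a median of 0.889% of the UMIs of an EMF_AuNPs microglia and 0.0917% of a control one. At least 2 markers of a non-myeloid class were found in 584 EMF_AuNPs microglia (78.9%) and 1847 control microglia (59.3%). The part of these differences between the libraries in the results on the 10 genes was not tested.

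With 1 library per group there is no replicate check and no test between groups. Every 95% interval covers counting error only, and "higher" or "lower" means at least 1.5-fold between the libraries on the log2(CPM + 1) scale. The interval given with a log2 ratio is exact and conditional on the UMIs of both libraries, and it leaves out the added 1 CPM. Microglia that had lost most homeostatic markers are outside the gate, so they are described separately.

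In gated microglia, 6 of the 10 genes were higher in the EMF_AuNPs library, namely Cst7, Lpl, Axl, Itgax, Clec7a and Spp1. None of the 10 was lower, with Csf1 the only one below its control value. Trem2, Tyrobp, Apoe and Csf1 differed by less than 1.5-fold. Over all 10700 genes with at least 30 UMIs in microglia, 9.41% were higher, 14.8% were lower and the median log2 ratio was -0.04, against a median of 1.29 over the 10 genes. The 6 higher genes were rare transcripts. For Spp1, Lpl and Cst7 the 5 richest barcodes held 83.9%, 68.8% and 56.9% of the UMIs of EMF_AuNPs microglia, and for Clec7a, Axl and Itgax they held 25.4%, 27.0% and 34.8%.

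**Figure D1:**
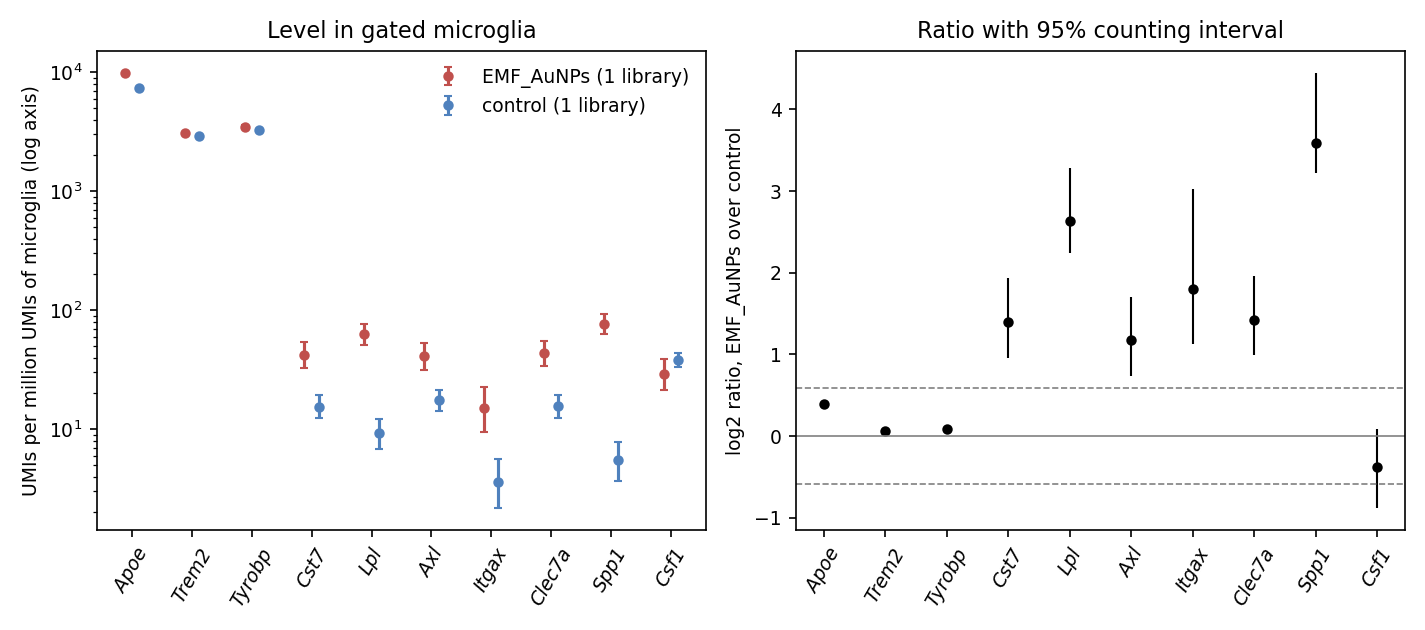
Left, the level of each gene in gated microglia in CPM on a log axis, for the EMF_AuNPs and the control library, with exact 95% Poisson intervals. Right, the log2 ratio of EMF_AuNPs over control with its 95% counting interval, dashed lines marking 1.5-fold. The 6 points from Cst7 to Spp1 sit above the upper line, and Apoe, Trem2, Tyrobp and Csf1 sit between the lines.

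The receptor pair was detected in nearly every microglia and was close between the libraries. Trem2 (chr17:48346401-48354147, mm10, plus strand) had 4690 UMIs or 3057 CPM (2970 to 3146) in EMF_AuNPs microglia, against 15525 UMIs or 2930 CPM (2884 to 2977) in control microglia. Its log2 ratio was 0.06 (0.01 to 0.11). Tyrobp (chr7:30413760-30417585, plus strand) had 3494 CPM (3402 to 3589) in EMF_AuNPs microglia and 3278 CPM (3230 to 3328) in control microglia, a log2 ratio of 0.09 (0.05 to 0.14). The sign of both small ratios depended on the gate: with a gate on 8 markers shared by brain macrophages they were -0.10 for Trem2 and -0.09 for Tyrobp. After every barcode was thinned to 1000 UMIs, 92.1% of EMF_AuNPs and 93.7% of control microglia held a Trem2 UMI, and 92.6% of EMF_AuNPs and 93.9% of control microglia held a Tyrobp UMI. Without thinning the shares were 93.8% of EMF_AuNPs and 96.8% of control microglia for Trem2, and 90.7% of EMF_AuNPs and 97.5% of control microglia for Tyrobp.

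Trem2 separated microglia from border macrophages more sharply than Tyrobp did. Border macrophages, gated by genes such as Mrc1 and Pf4, held 804 CPM of Trem2 in the EMF_AuNPs library and 887 CPM in the control library. Their Tyrobp level was 3500 CPM in the EMF_AuNPs library and 3800 CPM in the control library, near that of microglia. There were 0.875 Trem2 UMIs per Tyrobp UMI in EMF_AuNPs microglia and 0.894 in control microglia, against 0.230 in EMF_AuNPs and 0.233 in control border macrophages. This ratio hardly moved between the libraries within either macrophage class.

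Classes that should lack both genes still held some of their UMIs, which sets a background. The richest oligodendrocyte barcode held 12 Trem2 UMIs in the EMF_AuNPs library and 17 in the control library. The part of free RNA in droplets and of mixed barcodes in this background was not tested. At 1000 UMIs, a Trem2 UMI was seen in 15.2% of EMF_AuNPs and 8.29% of control oligodendrocytes, and a Tyrobp UMI in 20.5% of EMF_AuNPs and 14.4% of control oligodendrocytes. In EMF_AuNPs over control, Trem2 CPM was higher in oligodendrocytes (log2 ratio 0.71), endothelial cells (0.76), pericytes (0.82) and red blood cells (0.81). The microglial shares lie far above this background, which was itself larger in the EMF_AuNPs library.

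Of 13 adaptors, kinases and proteases that act with Trem2 and Tyrobp, 1 was higher and 1 was lower. Their median log2 ratio was -0.27, beside -0.04 over all genes. Over all genes in microglia, 9.41% were higher and 14.8% were lower, so counts this small are near the background. The higher gene was Ms4a6d, a membrane protein of myeloid cells, with 78.9 CPM in EMF_AuNPs and 45.3 CPM in control microglia. The lower was Syk, the kinase recruited by phosphorylated Tyrobp, with 39.1 CPM in EMF_AuNPs and 61.0 CPM in control microglia.

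Apoe (chr7:19696109-19699188, minus strand), the main lipid carrier protein of the brain, had 14997 UMIs or 9775 CPM (9620 to 9933) in EMF_AuNPs microglia, against 39317 UMIs or 7421 CPM (7348 to 7495) in control microglia. Its log2 ratio of 0.40 (0.37 to 0.42) did not reach 1.5-fold. The median microglia differed less than the sums, at 6864 CPM in the EMF_AuNPs library and 6177 CPM in the control library. The 5 barcodes richest in Apoe held 17.9% of its UMIs in EMF_AuNPs microglia and 3.47% in control microglia, and the richest single barcode held 851 UMIs in the EMF_AuNPs library and 375 in the control library. Without those 5 barcodes of each library the log2 ratio was 0.18. The sum of Apoe in EMF_AuNPs microglia therefore holds a tail of a few very rich barcodes above a bulk that lies close to the control.

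Apoe was more abundant in border macrophages, astrocytes and ependymal cells than in microglia of the same library. It was largest in border macrophages, at 53257 CPM in the EMF_AuNPs library and 68816 CPM in the control library, and next in astrocytes, at 33436 CPM in the EMF_AuNPs library and 35320 CPM in the control library. Ependymal cells held 13700 CPM in the EMF_AuNPs library and 16588 CPM in the control library. Oligodendrocytes held 6550 CPM in the EMF_AuNPs library, below microglia, and 7489 CPM in the control library. Endothelial cells were below microglia in both, at 5621 CPM in the EMF_AuNPs library and 5984 CPM in the control library. The control microglial level did not exceed that of control oligodendrocytes. The red blood cells had lower levels than microglia, at 4437 CPM in the EMF_AuNPs library and 4738 CPM in the control library. Among microglia with at most 1 marker of any non-myeloid class, 156 in EMF_AuNPs and 1268 in control, Apoe passed 1.5-fold, with a log2 ratio of 1.31. In the same setting the log2 ratio was -0.11 for Trem2 and -0.20 for Tyrobp. Of 11 genes of lipid transport around Apoe, 0 were higher and 2 were lower (9.41% and 14.8% over all genes). The lower genes were Lrp8, an Apoe receptor, with 9.13 CPM in EMF_AuNPs and 16.0 CPM in control microglia, and Soat1, which esterifies cholesterol, with 55.4 CPM in EMF_AuNPs and 87.4 CPM in control microglia.

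Spp1, Clec7a and Itgax, a secreted ligand and 2 surface receptors that were all higher in EMF_AuNPs microglia, are shown with the 250 bases upstream of a RefSeq transcript start on GRCm38.p6. The windows are chr5:104434861-104435110 (plus strand) for Spp1, chr6:129472780-129473029 (minus strand) for Clec7a and chr7:128129300-128129549 (plus strand) for Itgax, each written from 5′ to 3′ on the gene's strand. Capitals mark GAGGAA, the core of the site of PU.1, the lineage factor of macrophages, or TGANTCA, the site of AP-1.
Spp1: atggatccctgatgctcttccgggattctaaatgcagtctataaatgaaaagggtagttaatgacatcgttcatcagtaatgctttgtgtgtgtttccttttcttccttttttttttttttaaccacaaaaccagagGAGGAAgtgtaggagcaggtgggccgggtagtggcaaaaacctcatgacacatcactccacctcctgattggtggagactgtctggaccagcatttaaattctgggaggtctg
Clec7a: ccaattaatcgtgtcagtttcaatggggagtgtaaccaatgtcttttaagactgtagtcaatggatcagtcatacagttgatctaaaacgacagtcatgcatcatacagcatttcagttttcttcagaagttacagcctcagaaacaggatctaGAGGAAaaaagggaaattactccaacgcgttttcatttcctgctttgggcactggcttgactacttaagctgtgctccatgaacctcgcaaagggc
Itgax: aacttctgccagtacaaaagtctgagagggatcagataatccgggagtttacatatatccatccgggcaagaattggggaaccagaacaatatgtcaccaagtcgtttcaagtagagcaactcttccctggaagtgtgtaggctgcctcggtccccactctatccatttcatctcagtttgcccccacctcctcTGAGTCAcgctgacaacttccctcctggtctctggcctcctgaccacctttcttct
RefSeq windows were found for 8 of the 10 genes, all but Tyrobp and Lpl, and gave 12 windows because some genes have several starts. On either strand, GAGGAA was present in 7 of the 12, of Apoe, Axl, Clec7a, Spp1 and Trem2, against 23.3% of all 32851 mouse windows of this length. The Clec7a windows overlap and hold the same GAGGAA, which is counted once per window. By gene, it was present in 5 of the 8. TGANTCA was present in 2 of the 12, of Itgax and Trem2, against 6.75% of all windows. The E-box CACGTG was in 0 of the 12, against 6.02% of all windows. The 3 motifs do not overlap one another in the windows printed. A match of letters is a description of the window and not a binding site.

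Spp1, osteopontin, is a secreted phosphoprotein that binds integrins and CD44. It had 118 UMIs in 19 barcodes, or 76.9 CPM (63.7 to 92.1), in EMF_AuNPs microglia, and 29 UMIs in 20 barcodes, or 5.47 CPM (3.67 to 7.86), in control microglia. The log2 ratio of 3.59 (3.22 to 4.45) was the highest of all 10700 genes. It rested on few barcodes: the 5 richest held 83.9% of the Spp1 UMIs of EMF_AuNPs microglia and 48.3% of those of control microglia. Without the 5 richest of each library the log2 ratio was 1.83, still above 1.5-fold. After thinning, 1.89% of EMF_AuNPs and 0.351% of control microglia held an Spp1 UMI, a difference of 1.54 points (0.66 to 3.02), while 0.358% of EMF_AuNPs and 0.0834% of control oligodendrocytes held one. Unthinned, 2.57% of EMF_AuNPs and 0.642% of control microglia held one. The annotation places Gm42793 on the same strand within the Spp1 locus (chr5:104435118-104441050), and how the counting divided reads between them is not given in the sources used here.

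Spp1 was not confined to microglia. Pericytes, the contractile cells around capillaries, held 105 Spp1 UMIs or 297 CPM in the EMF_AuNPs library and 57 UMIs or 94.2 CPM in the control library, a log2 ratio of 1.65 (1.18 to 2.15), with the 5 richest pericytes holding 39.0% of the UMIs in EMF_AuNPs and 29.8% in control. Fibroblasts, of which too few were gated for a comparison, had larger levels than pericytes. They held 169 UMIs or 1757 CPM in 33 EMF_AuNPs barcodes, and 216 UMIs or 1780 CPM in 62 control barcodes. Border macrophages held 0 Spp1 UMIs in 56 EMF_AuNPs barcodes and 7 UMIs in 82 control barcodes. In microglia, the fibroblast markers summed to 17.0 CPM in the EMF_AuNPs library and 33.2 CPM in the control library, and the pericyte markers to 162 CPM in the EMF_AuNPs library and 195 CPM in the control library. These sums cover all gated microglia, and the part of such cells in the few barcodes rich in Spp1 was not tested. Of 5 integrin subunits of the osteopontin receptors, 0 were higher and 1 was lower (9.41% and 14.8% over all genes in microglia). Itgb1 was lower, with 154 CPM in EMF_AuNPs and 239 CPM in control microglia, and Itgav differed by less than 1.5-fold, with 102 CPM in EMF_AuNPs and 70.0 CPM in control microglia.

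Lpl (chr8:68880491-68907448, plus strand), the lipase that releases fatty acids from lipoproteins, had 96 UMIs in 30 barcodes, or 62.6 CPM (50.7 to 76.4), in EMF_AuNPs microglia. Control microglia had 49 UMIs in 31 barcodes, or 9.25 CPM (6.84 to 12.2), and the log2 ratio was 2.63 (2.25 to 3.29). A single EMF_AuNPs barcode held 38 of these UMIs, and the richest control barcode held 13. Without the 5 richest of each library the log2 ratio was 1.82. After thinning, 1.89% of EMF_AuNPs and 0.633% of control microglia held an Lpl UMI, a difference of 1.26 points (0.35 to 2.74), with 0 of 1117 EMF_AuNPs oligodendrocytes, which allows a share of up to 0.269%, and 6 of 5996 control oligodendrocytes. The unthinned shares of microglia were 4.05% in EMF_AuNPs and 0.995% in control. Smooth muscle cells also carried Lpl, at 61.3 CPM in the EMF_AuNPs library and 52.9 CPM in the control library, which are within each other's counting intervals. Fibroblasts, too few for a comparison, had larger levels. They held 35 Lpl UMIs or 364 CPM in 33 EMF_AuNPs barcodes, and 11 UMIs or 90.7 CPM in 62 control barcodes. Of 4 other genes of lipoprotein lipase handling with enough UMIs, 1 was higher in microglia (9.41% over all genes). This was Vldlr, a receptor for triglyceride-rich lipoproteins, with 21.5 CPM in EMF_AuNPs and 10.2 CPM in control microglia. Plin2, which coats lipid droplets, had 22.8 CPM in EMF_AuNPs and 15.9 CPM in control microglia, short of 1.5-fold.

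Cst7 (chr2:150570415-150578944, plus strand), cystatin F, inhibits lysosomal cathepsins. It had 65 UMIs in 25 barcodes, or 42.4 CPM (32.7 to 54.0), in EMF_AuNPs microglia and 82 UMIs in 75 barcodes, or 15.5 CPM (12.3 to 19.2), in control microglia. The log2 ratio was 1.40 (0.96 to 1.94). Without the 5 richest of each library its log2 ratio was 0.42, below 1.5-fold, while Spp1, Lpl, Axl and Clec7a stayed above 1.5-fold there and Itgax had too few UMIs left. Those 5 barcodes held 56.9% of the EMF_AuNPs UMIs and 12.2% of the control UMIs. The richest barcode held 15 UMIs in the EMF_AuNPs library and 2 in the control library. After thinning, 2.41% of EMF_AuNPs and 1.41% of control microglia held a UMI, and the interval of the difference (-0.09 to 2.64 points) includes 0, with unthinned shares of 3.38% of EMF_AuNPs and 2.41% of control microglia. Thinned to 500 UMIs, the difference for Cst7 was -0.26 points. Cst7 differed in how much a few barcodes held more than in how many barcodes held it. Of 5 genes for lysosomal proteases of the kind that cystatins inhibit and for the related cystatin Cst3, 3 were higher and 0 were lower. Over all genes in microglia, 9.41% were higher and 14.8% were lower. Lgmn, the legumain protease, had 2185 CPM in EMF_AuNPs and 944 CPM in control microglia, and Ctsc, cathepsin C, had 333 CPM in EMF_AuNPs and 159 CPM in control microglia.

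Clec7a (chr6:129461591-129472779, minus strand), or dectin-1, is a receptor for beta-glucans that GENCODE lists as a polymorphic pseudogene. It had 67 UMIs in 45 barcodes, or 43.7 CPM (33.9 to 55.5), in EMF_AuNPs microglia and 83 UMIs in 52 barcodes, or 15.7 CPM (12.5 to 19.4), in control microglia. The log2 ratio was 1.42 (0.99 to 1.96). Clec7a was spread over more barcodes than Spp1 or Lpl, and its 5 richest held 25.4% of the EMF_AuNPs UMIs and 31.3% of the control UMIs. After thinning, 2.75% of EMF_AuNPs and 0.844% of control microglia held it, a difference of 1.91 points (0.78 to 3.61), against 0.269% of EMF_AuNPs and 0.0334% of control oligodendrocytes. The unthinned shares of microglia were 6.08% in EMF_AuNPs and 1.67% in control. Thinned to 500 UMIs, the difference for Clec7a in microglia was 0.77 points. Border macrophages held 13 Clec7a UMIs in 56 EMF_AuNPs barcodes and 6 UMIs in 82 control barcodes, too few for a comparison.

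Itgax (chr7:128129547-128150657, plus strand), the CD11c integrin subunit of dendritic cells and activated microglia, was the rarest of the 10. It had 23 UMIs in 20 barcodes, or 15.0 CPM, in EMF_AuNPs microglia and 19 UMIs in 17 barcodes, or 3.59 CPM, in control microglia. The log2 ratio was 1.80 (1.12 to 3.02), and no microglia held more than 3 UMIs. After thinning, 1.38% of EMF_AuNPs and 0.351% of control microglia held an Itgax UMI, a difference of 1.02 points (0.29 to 2.35), with unthinned shares of 2.70% of EMF_AuNPs and 0.546% of control microglia. None of 1117 EMF_AuNPs and 5996 control oligodendrocytes held one after thinning, which allows a share of up to 0.269% in EMF_AuNPs and 0.0500% in control cells. Thinned to 500 UMIs, the difference for Itgax in microglia was 0.21 points. Of 8 genes that work with dectin-1 or with integrins, 1 was higher and 2 were lower (9.41% and 14.8% over all genes). Tlr2, a receptor that signals alongside dectin-1, had 94.5 CPM in EMF_AuNPs and 37.2 CPM in control microglia, and Tln1, talin, which activates integrins, had 220 CPM in EMF_AuNPs and 475 CPM in control microglia. The MHC class II-high myeloid cells, another class that carries Itgax, numbered 12 in the EMF_AuNPs library with 0 Itgax UMIs and 46 in the control library with 4.

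Axl (chr7:25757273-25788705, minus strand) is a receptor tyrosine kinase of the TAM family, which recognises dying cells through Gas6 and Pros1. It had 63 UMIs in 50 barcodes, or 41.1 CPM (31.6 to 52.5), in EMF_AuNPs microglia and 93 UMIs in 83 barcodes, or 17.6 CPM (14.2 to 21.5), in control microglia. The log2 ratio was 1.18 (0.74 to 1.70). After thinning, 4.13% of EMF_AuNPs and 1.65% of control microglia held an Axl UMI, a difference of 2.48 points (1.04 to 4.46), with unthinned shares of 6.76% of EMF_AuNPs and 2.66% of control microglia. Thinned to 500 UMIs, the difference for Axl was 0.56 points. In oligodendrocytes the thinned shares were 1.07% for EMF_AuNPs and 0.951% for control, below the microglial share of the same library. The part of background in the microglial Axl shares was not tested.

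Axl was also higher in 3 classes outside microglia. Pericytes held 235 CPM in the EMF_AuNPs library and 140 CPM in the control library, a log2 ratio of 0.74 (0.29 to 1.20). Smooth muscle cells held 179 CPM in the EMF_AuNPs library and 62.0 CPM in the control library, a log2 ratio of 1.52 (0.94 to 2.16). Astrocytes held 134 CPM in the EMF_AuNPs library and 68.2 CPM in the control library, a log2 ratio of 0.96 (0.77 to 1.18), where the median of all genes was 0.17 and 18.3% of genes were higher. Its levels in endothelial cells were 21.1 CPM in the EMF_AuNPs library and 20.8 CPM in the control library, so the classes did not move alike. Of 6 other genes of the TAM receptors, their ligands and their targets in microglia, 3 were higher (9.41% over all genes). Socs1, a suppressor of cytokine signalling, had 10.4 CPM in EMF_AuNPs and 3.21 CPM in control microglia. Socs3, of the same family, had 237 CPM in EMF_AuNPs and 128 CPM in control microglia.

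Csf1 (chr3:107741048-107760469, minus strand), the growth factor on which microglia depend through Csf1r, was the exception among the 7 genes of the later step. It had 45 UMIs in 33 barcodes, or 29.3 CPM (21.4 to 39.3), in EMF_AuNPs microglia, and 203 UMIs in 160 barcodes, or 38.3 CPM (33.2 to 44.0), in control microglia. The log2 ratio was -0.37 (-0.89 to 0.09), and without the 5 richest barcodes of each library it was -0.77, past 1.5-fold lower, as it was without the 5% deepest microglia (-0.74). After thinning, 2.93% of EMF_AuNPs and 3.13% of control microglia held a UMI, and the interval of the difference runs from -1.50 to 1.60 points. Unthinned, it was 4.46% of EMF_AuNPs and 5.14% of control microglia. Among classes with at least 50 barcodes in each library, the largest Csf1 level was in oligodendrocytes. They held 65.6 CPM in the EMF_AuNPs library and 80.4 CPM in the control library. Their thinned shares of 6.18% of EMF_AuNPs and 7.19% of control cells exceeded those of microglia. Csf1r is in the same list as Csf2ra and Csf2rb, receptor subunits for GM-CSF, and 0 of these 3 were higher or lower. Csf2ra had 117 CPM in EMF_AuNPs and 78.7 CPM in control microglia, and Csf2rb had 54.1 CPM in EMF_AuNPs and 70.2 CPM in control microglia.

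**Figure D2:**
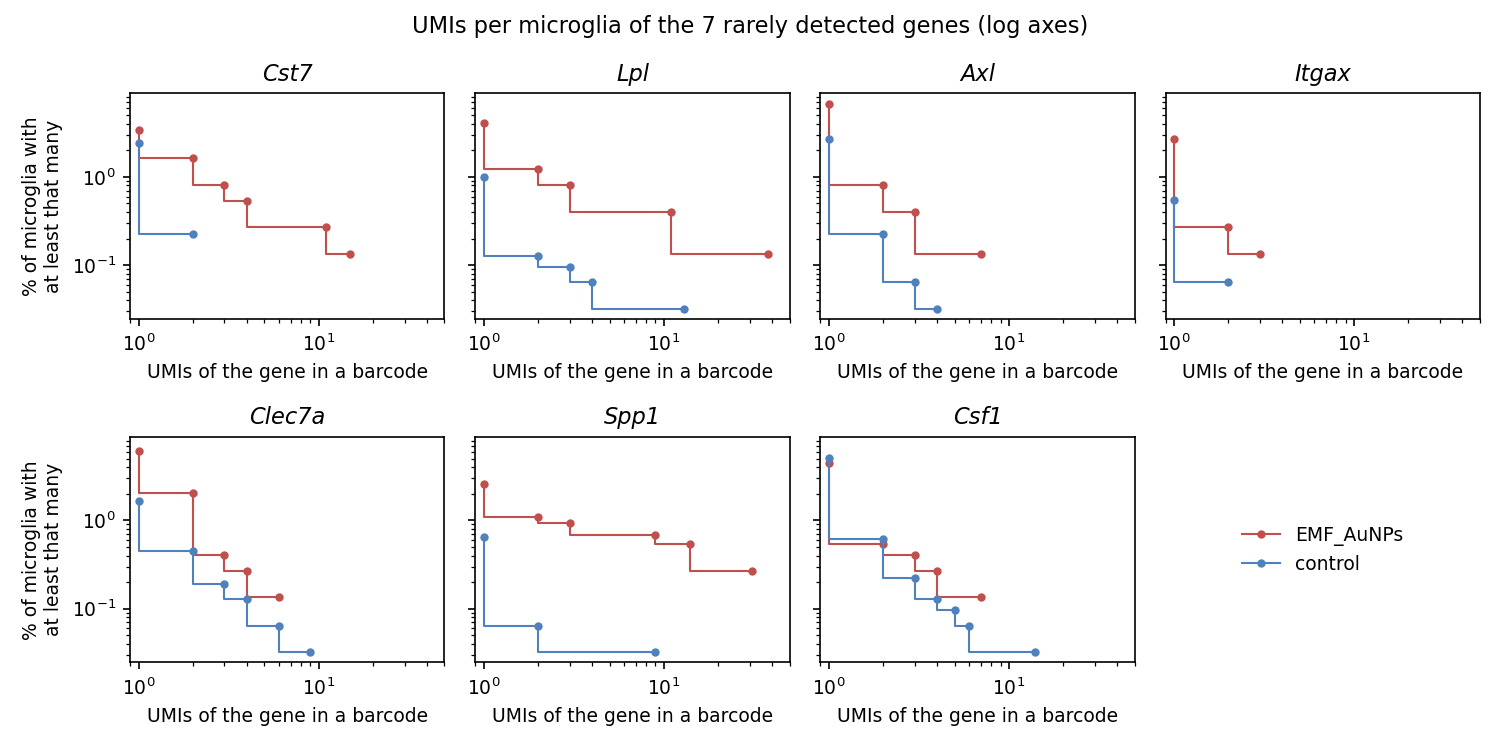
For each of the 7 rarely detected genes, the percentage of EMF_AuNPs and control microglia (vertical log axis) that held at least the number of UMIs on the horizontal log axis. The EMF_AuNPs line reaches 31 UMIs for Spp1, 38 for Lpl and 15 for Cst7, against 9 UMIs for Spp1, 13 for Lpl and 2 for Cst7 in the control library, while the lines of Csf1 lie close together at 1 and 2 UMIs.

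Across the 10 cell classes with at least 50 barcodes in each library, the 10 genes fell into different patterns. Among these classes, Cst7 and Itgax were largest in microglia in both libraries. T or NK cells, too few to compare, held more Cst7 CPM than microglia. They had 5 UMIs in 12 EMF_AuNPs barcodes (181.7 CPM) and 1 in 13 control barcodes (42.1 CPM). MHC class II-high myeloid cells, also too few, held 4 Itgax UMIs in 46 control barcodes (41.5 CPM, above control microglia) and 0 in 12 EMF_AuNPs barcodes. Trem2 was also largest in microglia, while Apoe was largest in border macrophages, and Tyrobp in border macrophages was within 1.5-fold of microglia. Clec7a was largest in border macrophages, on few UMIs, and next in microglia, in both libraries. MHC class II-high myeloid cells, too few to compare, held more Clec7a, at 178.5 CPM in the EMF_AuNPs library and 83.0 CPM in the control library. So did monocytes or neutrophils, at 969 CPM in 1 EMF_AuNPs barcode and 756 CPM in 12 control barcodes. Among these classes, Axl and Spp1 were largest in pericytes and Csf1 in oligodendrocytes, in both libraries. The fibroblasts, too few to be among these classes, held more Spp1 CPM than pericytes in both libraries. They also held more Lpl CPM than microglia or smooth muscle cells in both libraries. Lpl was near equal in microglia and smooth muscle cells of the EMF_AuNPs library, at 62.6 and 61.3 CPM with overlapping intervals. In the control library Lpl in smooth muscle, at 52.9 CPM, was above that in microglia, at 9.25 CPM. Over the 54 pairs of a gene and a class with at least 30 UMIs, 17 were higher in the EMF_AuNPs library and 0 were lower. Outside microglia the higher ones were Trem2 in 4 classes, Axl in 3, Spp1 in oligodendrocytes, endothelial cells and pericytes, and Csf1 in the choroid plexus. The endothelial Spp1 call rested on a single barcode, which held 19 of the 33 Spp1 UMIs of EMF_AuNPs endothelial cells, against 37 UMIs in control cells and at most 3 in a control barcode. Without the richest barcode of each library, a setting chosen after seeing the data, endothelial Spp1 was at 5.01 CPM in EMF_AuNPs and 5.96 CPM in control cells, a log2 ratio of -0.21. Csf1 in the choroid plexus, with 13 UMIs in EMF_AuNPs and 22 in control cells, also fell short of 1.5-fold there (0.50), and the other 15 pairs still passed it.

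These counts have the following background over all genes of the same class with at least 30 UMIs. In oligodendrocytes 8.03% were higher and 9.69% lower, and in endothelial cells 11.1% were higher and 8.48% lower. In pericytes 13.6% were higher and 14.1% lower, and in smooth muscle cells 15.9% were higher and 12.7% lower. In astrocytes 18.3% were higher and 8.96% lower, in the choroid plexus 29.0% were higher and 5.40% lower, and in red blood cells 26.1% were higher and 10.9% lower. In border macrophages 17.0% were higher and 16.7% lower, and in ependymal cells 18.3% were higher and 11.1% lower. The choroid plexus, where Csf1 was the 1 higher gene of 5 tested, and red blood cells, where Trem2 was the 1 of 3, thus had high shares of higher genes in any case.

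**Figure D3:**
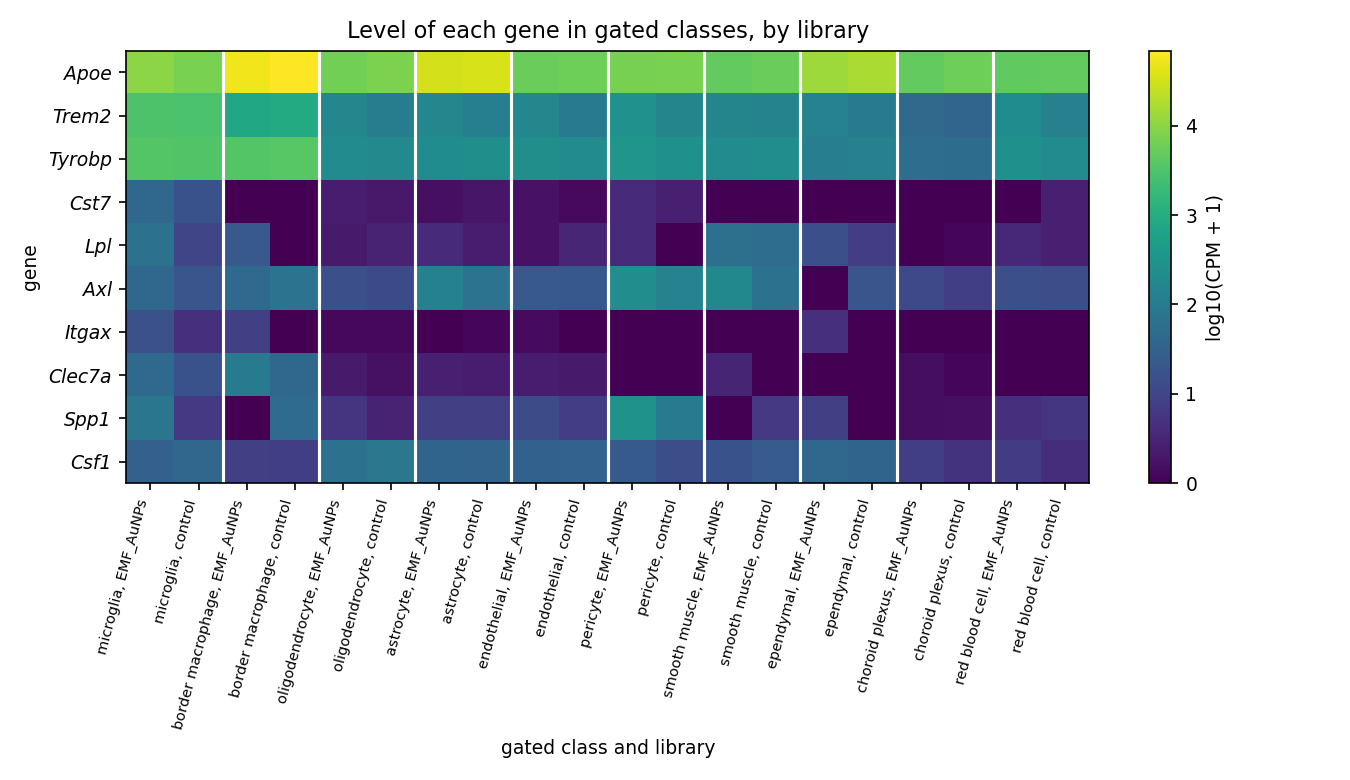
Level of each gene (rows) as log10(CPM + 1) in the 10 compared classes (pairs of columns), with the EMF_AuNPs library left of the control library in each pair. Cst7 and Itgax stand out in the microglia pair, Axl and Spp1 in the pericyte pair, and Apoe in border macrophages and astrocytes.

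The genes with the most similar profiles over the 20 pairs of class and library were named by Pearson's r of log2(CPM + 1). These points share libraries, depth and free RNA, and r is a description. Trem2 was most like P2ry13 (r = 0.99), itself a gating marker, and Ly86 (0.99). Tyrobp was most like Aif1 and Fcer1g (r = 0.995 and 0.994), both general macrophage genes. Cst7 was most like Il1a (0.94) and Il7r (0.90), and Clec7a like C5ar1 (0.97) and Ebi3 (0.96). The likeness was looser for Apoe with Itsn1 (0.87) and Plxnc1 (0.82), for Axl with Nupr1 (0.87) and Rhbdf1 (0.85), and for Csf1 with Tet1 and Trnt1 (both 0.90). It was weakest for Lpl with Rbm38 and Gem (both 0.81) and for Spp1 with Slc6a13 (0.80) and Svop (0.78). Itgax had under 100 UMIs in gated cells and was left out.

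The 7 rarely detected genes of the later step were found together in some barcodes. Counts of such barcodes use the same UMIs as the single-gene shares above, so they are not independent of those shares. The overlap that those shares alone would give was not calculated. After thinning to 1000 UMIs, 17 of 581 EMF_AuNPs microglia (2.93%, 1.71 to 4.64) and 15 of 2845 control microglia (0.527%, 0.295 to 0.868) held at least 2 of the 7. The difference was 2.40 points (1.26 to 4.12). Microglia with under 1000 UMIs were left out, 159 in the EMF_AuNPs library and 270 in the control library. Unthinned, 44 of 740 EMF_AuNPs microglia (5.95%) and 49 of 3115 control microglia (1.57%) held at least 2, and 20 EMF_AuNPs microglia and 11 control microglia held at least 3. Thinned to 500 UMIs the difference was 0.490 points and its interval (-0.025 to 1.45) includes 0.

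**Figure D4:**
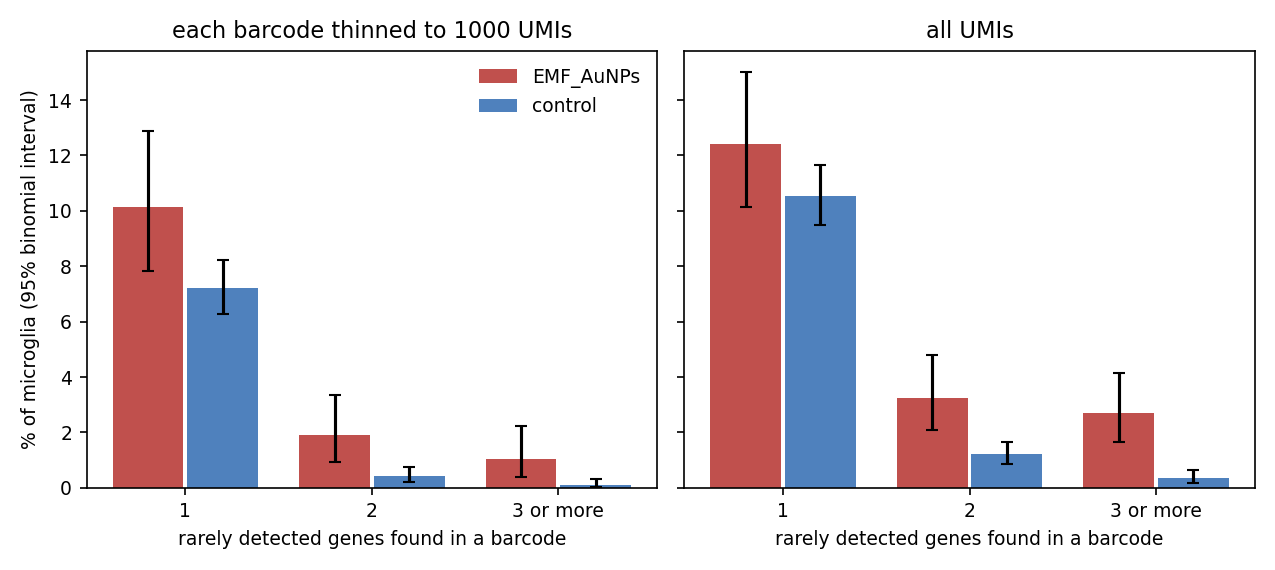
Percentage of EMF_AuNPs microglia (left bar of each pair) and control microglia (right bar) in which 1, 2 or at least 3 of the 7 rarely detected genes were found, with exact 95% binomial intervals, at 1000 UMIs per barcode and with all UMIs. At 1000 UMIs, at least 2 genes were found in 2.93% of EMF_AuNPs and 0.527% of control microglia.

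Without thinning, all 21 pairs of the 7 genes were found together in at least 5 EMF_AuNPs microglia. The number per pair ran from 5 to 16. A barcode with all 7 genes counts in every pair, and EMF_AuNPs microglia were deeper (medians of 1957 against 1579 UMIs in control). In the larger control population 6 of the 21 pairs reached 5 barcodes and 4 pairs were never seen together. Cst7 and Spp1 shared 9 EMF_AuNPs barcodes, of 25 with Cst7 and 19 with Spp1. The 3 EMF_AuNPs microglia with the most of the 7 genes held 7, 7 and 6 of them. The first held 851 UMIs of Apoe, 31 of Spp1, 11 of Lpl, 11 of Cst7, 7 of Axl, 6 of Clec7a, 4 of Csf1 and 2 of Itgax among 7978 UMIs. The third held 31 UMIs of Spp1, 15 of Cst7 and 115 of Tyrobp but 49 of Apoe among 8439 UMIs, so the richest barcodes were not alike in Apoe. In the control library 11 microglia held at least 3 of the 7 genes. The richest held 4 of them and no Spp1, and the others held 3.

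Microglia with at least 2 of the 7 genes were then set against those with 0, within each library and as a description, since the first were chosen by their counts and were deeper (medians of 3450 against 1748 UMIs in EMF_AuNPs, and 2405 against 1552 UMIs in control). Apoe was at 26585 CPM in EMF_AuNPs microglia with at least 2 and 7191 CPM in those with 0. In the control library it was at 12442 CPM in microglia with at least 2 and 7241 CPM in those with 0. The medians per barcode were much closer, at 7526 CPM with at least 2 and 7017 CPM with 0 in the EMF_AuNPs library. A minority of the 44 barcodes therefore carried the excess of Apoe. At 1000 UMIs the median was 19000 CPM in the 17 EMF_AuNPs microglia with at least 2 and 6000 CPM in those with 0. Tyrobp was at 4949 CPM with at least 2 and 3248 CPM with 0 in EMF_AuNPs microglia, while Trem2 was at 3299 CPM with at least 2 and 3088 CPM with 0.

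Of 22 other genes of the program with enough UMIs, 13 were at least 1.5-fold larger and 0 smaller in EMF_AuNPs microglia with at least 2 of the 7 than in those with 0, and 13 larger and 0 smaller in control microglia. Over all genes with enough UMIs in the same comparison, 8.73% were larger and 28.7% smaller in the EMF_AuNPs library, and 17.4% larger and 28.2% smaller in the control library. At 1000 UMIs, 15 of 20 program genes were larger and 2 smaller in EMF_AuNPs microglia with at least 2, and 12 of 21 larger and 1 smaller in control microglia. The shares over all genes were then 19.7% larger and 38.6% smaller in the EMF_AuNPs library, and 24.7% larger and 57.7% smaller in the control library, where a gene with no UMI in the few barcodes with at least 2 counts as smaller. The genes in the next sentences were picked after their values were seen. Ctsb, a lysosomal protease, was at 3082 CPM in EMF_AuNPs microglia with at least 2 and 1395 CPM in those with 0. Cd52, a surface glycoprotein of leukocytes, was at 1279 CPM in EMF_AuNPs microglia with at least 2 and 254 CPM in those with 0, and in the control library at 723 CPM with at least 2 and 263 CPM with 0. Lyz2, lysozyme of myeloid cells, was at 1157 CPM with at least 2 and 175 CPM with 0 in EMF_AuNPs microglia, and in the control library at 167 CPM with at least 2 and 95.4 CPM with 0.

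Of 13 homeostatic genes, 6 were at least 1.5-fold smaller and 0 larger in EMF_AuNPs microglia with at least 2 of the 7, beside 28.7% smaller over all genes. In control microglia 3 were smaller and 0 larger, beside 28.2% smaller over all genes, so the control count is near the background. At 1000 UMIs 9 of 13 were smaller in EMF_AuNPs microglia, beside 38.6% of all genes, and 5 of 13 in control microglia, beside 57.7% of all genes. P2ry12, the ADP receptor of ramified microglia, was at 735 CPM in EMF_AuNPs microglia with at least 2 and 1516 CPM in those with 0, and in the control library at 540 CPM with at least 2 and 956 CPM with 0. The gate itself used 8 of the 13 genes, so barcodes that lacked more of them could not enter.

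Markers of other myeloid cells moved with part of this pattern. The markers of MHC class II-high myeloid cells summed to 844 CPM in EMF_AuNPs microglia with at least 2 of the 7 and 230 CPM in those with 0, and in the control library to 151 CPM with at least 2 and 55.4 CPM with 0. Those of border macrophages summed to 122 CPM in EMF_AuNPs microglia with at least 2 and 133 CPM in those with 0, and the border macrophage marker Pf4 was at 0 in the 44 barcodes. In control microglia with at least 2, the pericyte markers summed to 540 CPM against 165 CPM in those with 0, and the astrocyte markers to 5212 CPM against 2900 CPM. The part of these classes in the co-detection was not tested.

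**Figure D5:**
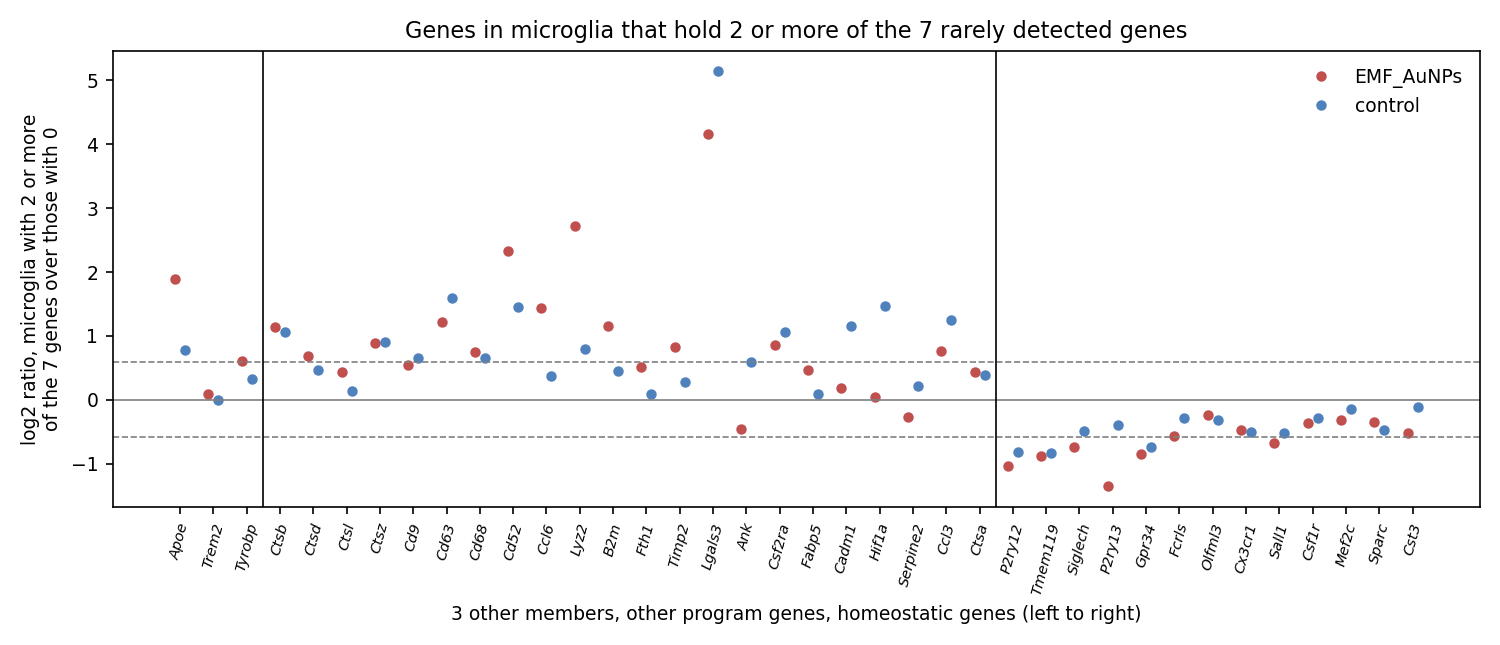
Log2 ratio of CPM in microglia with at least 2 of the 7 rarely detected genes over microglia with 0 of them, in the EMF_AuNPs and the control library, for genes with at least 30 UMIs in the 2 sets together, dashed lines marking 1.5-fold. Of the 22 other program genes 13 lie above the upper line in each library, and of the 13 homeostatic genes 6 in EMF_AuNPs and 3 in control lie below the lower line.

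The other program genes were also compared between the libraries over all gated microglia. Of 24 with enough UMIs, 8 were higher and 0 were lower (9.41% and 14.8% over all genes). Their median log2 ratio was 0.46, beside -0.04 for all genes. The 2 with the largest ratios were Lilrb4a, an inhibitory receptor, with 13.7 CPM in EMF_AuNPs and 2.64 CPM in control microglia, and Cybb, the catalytic subunit of the phagocyte oxidase, with 19.6 CPM in EMF_AuNPs and 4.15 CPM in control microglia. The remaining 6, given here to complete the count, were Lyz2 (log2 ratio 1.83), Lgals3 (1.52), Cd9 (1.09), Ctsl (0.68), Cadm1 (0.67) and Ctsb (0.62). Relative to each gene's own median log2 ratio in the remaining classes, 4 of the 24 were higher.

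The homeostatic genes did not move as a group between the libraries. Of 13, 1 was higher and 1 was lower (9.41% and 14.8% over all genes), with a median log2 ratio of 0.02. The higher gene was Gpr34, a lysophospholipid receptor, with 1119 CPM in EMF_AuNPs and 602 CPM in control microglia. The lower gene was Cx3cr1, the fractalkine receptor, with 3087 CPM in EMF_AuNPs and 5120 CPM in control microglia. Since 8 of the 13 genes gated the cells, this list is not independent of the gate.

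Part of the UMIs of every one of the 10 genes lay outside every gate. Ungated barcodes held 729 of the 1203 Spp1 UMIs of the EMF_AuNPs library (60.6%) and 306 of 734 in the control library (41.7%). For Lpl they held 187 of 373 UMIs (50.1%) in the EMF_AuNPs library and 63 of 213 (29.6%) in the control library. For the other rare genes the ungated share ran from 16.8% (Csf1) to 37.1% (Clec7a) in the EMF_AuNPs library and from 18.6% (Csf1) to 29.8% (Axl) in the control library. It was 19.2% in EMF_AuNPs and 19.7% in control for Apoe. Of the ungated Spp1 UMIs, 91.6% in the EMF_AuNPs library and 33.7% in the control library lay in barcodes with at least 4 of 8 markers shared by brain macrophages (among them C1qa, C1qb, C1qc and Csf1r). There were 867 such EMF_AuNPs barcodes, of which 36 held Spp1 and a single one held 263 UMIs of it, and 1563 such control barcodes, of which 39 held Spp1 with at most 13 UMIs. For Lpl the same barcodes held 172 UMIs in the EMF_AuNPs library and 40 in the control library, and for Clec7a 58 UMIs in the EMF_AuNPs library and 50 in the control library. These ungated barcodes include mixtures of cells, and their identity was not settled.

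A gate on the 8 shared macrophage markers took in part of these barcodes. Under it Spp1 was at 153 CPM in EMF_AuNPs and 9.04 CPM in control cells, Lpl at 77.0 CPM in EMF_AuNPs and 9.33 CPM in control cells, and Axl at 47.4 CPM in EMF_AuNPs and 19.7 CPM in control cells. Clec7a was at 32.9 CPM in EMF_AuNPs and 15.8 CPM in control cells, Cst7 at 30.5 CPM in EMF_AuNPs and 15.4 CPM in control cells, and Itgax at 10.3 CPM in EMF_AuNPs and 3.41 CPM in control cells. The same 6 genes were higher, with larger ratios for Spp1, Lpl and Axl and smaller ones for Clec7a, Cst7 and Itgax than in the microglia gate.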

How the data were processed

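The data of both libraries were used as deposited: the matrices hold whole-number UMI counts per gene and barcode, not normalised, produced by the authors. The submitters' processing notes name Cell Ranger 3.0.2, STAR and mm10. Neither the annotation nor the STAR version is stated (not given in the sources used here). All 10 genes, the marker and pathway lists and the gates were chosen with earlier results of these data known.

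Each barcode was gated by 8 markers per class (18 classes, at least 3 markers and 2 more than any other class), and red blood cells by at least 50% haemoglobin UMIs. Of the marker and pathway lists, 7 genes have no row in the matrices. A gene of the homeostatic list is not reported here and was left out of that list's counts. Gated barcodes made up 75.4% of the EMF_AuNPs and 79.6% of the control library. No doublet caller was run. Barcodes with at least 3 markers of 2 classes and a smaller gap stayed ungated. A barcode with a sufficient gap was gated even when it held markers of another class. Doublets of like cells and mixtures of unlike cells can therefore remain in the gates. The libraries shared 38 barcodes, of which 4 EMF_AuNPs and 5 control barcodes were microglia.

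Counts were summed per class and library and divided by the class total (CPM). Log2 ratios are EMF_AuNPs over control with 1 CPM added, and genes with at least 30 UMIs were compared. Intervals are exact Poisson (CPM), Clopper-Pearson (shares), Newcombe (differences of shares) and conditional binomial (ratios), all at 95% and for counting error only. A count of 0 allows up to 3 counts. Thinning to 1000 UMIs used seed 1 and left out shallower barcodes. UMI counts are not scaled by gene length, so levels of different genes were not compared. Named genes were the 10 members, the 2 genes of each list with the largest absolute log2 ratio, and the 2 genes most like each member with at least 100 gated UMIs. Gene coordinates are those of GENCODE on GRCm38 (mm10). The ratio step was tested on simulated counts. Python 3.11.15, numpy 2.4.6, scipy 1.17.1, pandas 2.3.3 and matplotlib 3.10.9 were used. Other gates, depths, pseudocounts, scalings and left-out barcodes were tried.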

Additional observations from a re-analysis of the deposited data

How the results depend on the processing

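The count of 6 higher genes of the 10 lay between 4 and 7 under the other settings. It was 4 of 9 without the 5 barcodes richest in each gene, where Cst7 fell short of 1.5-fold and Itgax had too few UMIs. This setting and the one without shared barcodes (6) were chosen after seeing the data. With at most 1 marker of any non-myeloid class it was 5 of 8, Apoe among them, and Spp1 and Itgax had too few UMIs. The count of lower genes, 0, was 1 (Csf1) without the 5% deepest microglia and 1 without the 5 richest barcodes. The co-detection difference of 2.40 points was 0.490 points when thinned to 500 UMIs, 4.37 points without thinning, and 4.91 points with at most 1 marker of any non-myeloid class (5 of 93 EMF_AuNPs and 5 of 1072 control microglia). Shares of single genes in microglia also depended on depth. Thinned to 500 UMIs, the difference was 0.56 points for Axl, 0.21 for Itgax, 0.77 for Clec7a and -0.26 for Cst7. For Lpl it was 1.03 points, for Spp1 0.86 and for Csf1 -0.16. The 8 higher program genes were 4 after subtracting the median over the other classes. The 17 higher pairs of a gene and a class were 15 without the richest barcode of each library, also chosen after seeing the data, where endothelial Spp1 turned to -0.21 and choroid plexus Csf1 was 0.50. In microglia no log2 ratio of a gene past 1.5-fold changed sign in these settings. Depth limits the rare genes most: Itgax had 23 UMIs in EMF_AuNPs and 19 in control microglia. No paired analysis was possible because there was 1 library per group and the labels carry no replicate number, and for the same reason no library could be left out.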
